A study of Ovis aries with 7 samples.

Results

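Acetylcholine synthesis and muscarinic acetylcholine receptor genes were followed through the cell classes of the sheep striatum, as an 8-gene set among the 26479 features counted in each nucleus. The genes were chosen by symbol: CHAT (choline acetyltransferase, the enzyme that makes acetylcholine), SLC5A7 (the choline transporter of cholinergic endings), SLC18A3 (the vesicular acetylcholine transporter) and the receptor genes CHRM1 to CHRM5. Each symbol matched 1 feature: ENSOARG00020015034 (CHAT), ENSOARG00020001925 (SLC5A7), ENSOARG00020015012 (SLC18A3), ENSOARG00020021898 (CHRM1), ENSOARG00020001961 (CHRM2), ENSOARG00020020814 (CHRM3), ENSOARG00020022796 (CHRM4) and ENSOARG00020004316 (CHRM5). In RefSeq's annotation of another sheep assembly (ARS-UI_Ramb_v3.0) SLC18A3 and CHAT are direct neighbours that do not overlap.

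OVT73 is a transgenic sheep line that expresses full-length human HTT cDNA with an expanded polyglutamine tract from a short stretch of human HTT upstream sequence, and carries its own sheep HTT as the controls do. The line is described as a model of the stage before symptoms, without loss of striatal cells. Frozen anterior striatum of 12 sheep aged 5 years was used, 6 OVT73 and 6 wild-type controls, with both sexes in each group. Nuclei were sequenced as 7 droplet libraries, the unit of replication here. All 3 OVT73 libraries and control libraries 3 and 4 were pools of 2 sheep, while 1 animal made up control library 1 and another control library 2. Animals within a pool were not told apart, and n is therefore 3 OVT73 against 4 control libraries.

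In the striatum acetylcholine comes mainly from cholinergic interneurons, large and sparse neurons that are active without input and whose axons reach most of the tissue. These cells make acetylcholine from choline with choline acetyltransferase, load it into vesicles, and take choline back up after acetylcholinesterase has split the transmitter. Muscarinic receptors couple to G proteins: M1, M3 and M5 act through Gq and phospholipase C, while M2 and M4 act through Gi and lower cAMP. In rodents M4 is known as the receptor of D1 medium spiny neurons (MSNs), M1 is found in D1 and D2 MSNs, and M2 serves as an autoreceptor on cholinergic interneurons.

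The 7 libraries held 35272 barcodes, with 27760110 to 70473426 unique molecular identifiers (UMIs, each standing for 1 counted transcript) per OVT73 library and 20887378 to 27704528 per control library. After limits on genes and mitochondrial UMIs and removal of likely doublets, 32602 nuclei remained, 17441 of OVT73 and 15161 of controls. Median UMIs per kept nucleus were 2221 to 2562 in OVT73 libraries and 1860 to 2170 in control libraries. Any pair of libraries shared 2 to 20 barcodes. The feature with the identifier HTT, separate from the sheep gene, held 25 to 322 UMIs in OVT73 libraries and 1 to 6 in control libraries. Marker genes that excluded the 8 genes named 30171 nuclei as 12 classes, and 2431 nuclei stayed unnamed.

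Cholinergic-like nuclei were rare, 55 of the 32602 kept. Their cluster raised 7 of the 8 measured cholinergic markers, among them LHX8 and ISL1 (transcription factors of cholinergic neurons) and SLC17A8 (a vesicular glutamate transporter of these neurons). LHX8 stood at 364 CPM (a gene's UMIs per-million UMIs of the class) against 25.4 CPM in PV/Th-like interneurons. The first of its leading genes by fold was CLSTN2, which is on the PV/Th marker list, and LHX8 was the fifth. OVT73 libraries gave 14, 8 and 4 of these nuclei, and control libraries 4, 12, 6 and 7. Some markers of other classes were uneven between libraries. HS3ST4 (D2 MSN list) stood at 12.8 CPM with an SD of 183 over the 7 libraries, and BCL11B (MSN list) at 6.76 with an SD of 48.2. SDs so far above the level place most of the 17 HS3ST4 UMIs in control library 2, which had the fewest UMIs in the class. Of the 9 BCL11B UMIs they place a part in that library, but not most. LHX8 stood at 420 CPM there, but the class name is less sure for its nuclei.

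CHAT and SLC5A7 were concentrated in the cholinergic-like nuclei, while SLC18A3 was not detected there. CHAT held 664 UMIs in the class, or 499 CPM, which was 39.9% of all CHAT UMIs from 0.613% of all UMIs counted. SLC5A7 held 609 UMIs, or 458 CPM, which was 72.0% of its UMIs. By library, the CHAT level in cholinergic-like nuclei was 424, 495 and 554 CPM in OVT73 libraries and 528, 32.3, 505 and 577 CPM in control libraries. All libraries but control library 2 lay close together. That library had 12 cholinergic-like nuclei with a median of 2275.5 UMIs, which together held 1 CHAT UMI, whereas the class median was 16756 UMIs. OVT73 library 1 held shallow nuclei too, with 7 of its 14 at 5000 UMIs or more. Its CHAT level was 424 CPM over all 14 and 397 CPM in those 7. What set control library 2 apart, in depth or in the kind of nuclei named, was not tested.

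At least 1 CHAT UMI was found in 41 of the 55 cholinergic-like nuclei (74.5%) and at least 1 SLC5A7 UMI in 45 (81.8%). In PV/Th-like interneurons, a class of similar depth (median 14720.5 UMIs) that is not known to make acetylcholine, the shares were 4.57% and 1.27%. The genes went together: 40 cholinergic-like nuclei had UMIs of both, 1 of CHAT only, 5 of SLC5A7 only and 9 of neither. All 9 with neither came from control library 2, where 1 of 12 nuclei had a CHAT UMI and 3 an SLC5A7 UMI. Of these 12 nuclei, 1 had at least 5000 UMIs. A cholinergic-like nucleus held a median of 6 CHAT UMIs with a maximum of 74, and a median of 4 SLC5A7 UMIs with a maximum of 57. With each nucleus thinned to 5000 UMIs, which left out 18 cholinergic-like and 15 PV/Th-like nuclei, CHAT was seen in 34 of 37 cholinergic-like nuclei (91.9%, exact binomial 95% interval 78.1 to 98.3) and in 1.85% of PV/Th-like nuclei (0.746 to 3.77). For SLC5A7 these shares were 81.1% (64.8 to 92) and 0.528% (0.064 to 1.89). The cholinergic-like nuclei left out came from OVT73 library 1 and control library 2, where 7 of 14 and 1 of 12 had at least 5000 UMIs. Thinning itself cannot raise a share, so the rise of CHAT from 74.5% to 91.9% came from leaving these nuclei out. The thinned shares thus do not describe the whole class.

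Within libraries, CHAT in cholinergic-like nuclei exceeded that in PV/Th-like nuclei by 6.35 ± 1.45 on the log2(CPM + 1) scale (SD, n = 7 libraries), in 7 of 7 libraries (two-sided exact sign-flip permutation p = 0.0156, the smallest that 7 libraries allow). SLC5A7 exceeded it by 7.45 ± 0.98 (n = 7), also in 7 of 7 libraries (exact sign-flip permutation p = 0.0156). After Benjamini-Hochberg adjustment over the 13 within-library comparisons both became 0.0677, which does not pass 0.05. This value is limited by the number of libraries and by the number of comparisons together. The 13 include SLC18A3, which had 0 UMIs in both classes and could not differ. Over the summed UMIs CHAT was 153-fold higher (95% counting interval 99.4 to 249) and SLC5A7 295-fold higher (159 to 619). Intervals on UMIs and on shares of nuclei throughout cover counting error only, and not the spread between libraries.

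**Figure D1:**
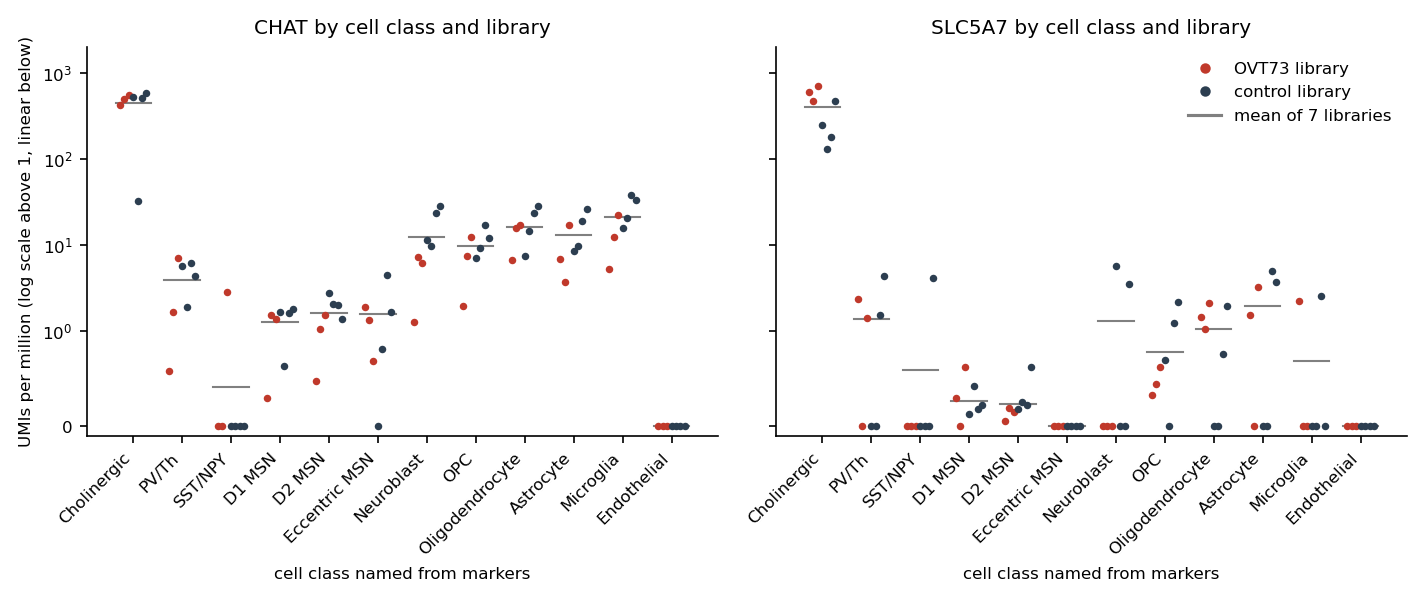
CHAT (left) and SLC5A7 (right) in CPM by cell class, 1 point per library (red OVT73, dark blue control) and a grey line at the mean of the 7 libraries, on an axis that is logarithmic above 1 and linear below. The cholinergic-like class stood at 499 CPM for CHAT and 458 CPM for SLC5A7 over all libraries, with control library 2 at 32.3 CPM of CHAT.

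SLC18A3, the vesicle loader, was almost uncounted. Only 2 UMIs were seen in all kept nuclei, both in oligodendrocyte-like nuclei of OVT73 library 1. The 0 UMIs in cholinergic-like nuclei allow a level of up to 2.25 CPM (3 counts over the class).

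Outside the cholinergic-like class CHAT was counted at a low level in 10 of the other 11 named classes, and its order depended on the scale. By CPM, microglia-like (17.4 CPM), oligodendrocyte-like (14.6 CPM), astrocyte-like (11.2 CPM), neuroblast-like (9.00 CPM) and oligodendrocyte precursor-like nuclei (OPC, 8.07 CPM) stood above PV/Th-like (3.25 CPM), eccentric MSN-like (1.49 CPM), D2 MSN-like (1.26 CPM), D1 MSN-like (1.16 CPM) and SST/NPY-like nuclei (0.516 CPM, 1 UMI). The ratio of microglia-like to D1 MSN-like CPM was 15.1 (95% counting interval 10.9 to 20.9). Endothelial-like nuclei held 0 CHAT UMIs, which with 51 nuclei allows up to 40.5 CPM. Neighbours in this order overlapped between libraries, as with microglia-like (5.19 to 38.3 CPM) and oligodendrocyte-like nuclei (6.71 to 28.0 CPM).

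Counted per nucleus instead of per UMI, most of these classes were close to each other. CHAT came to 31.0 UMIs per 1000 nuclei in D1 MSN-like, 33.4 in D2 MSN-like, 30.5 in oligodendrocyte-like, 32.9 in OPC-like, 37.6 in astrocyte-like and 26.8 in microglia-like nuclei, although their median depths ran from 1405 UMIs (microglia-like) to 23022 UMIs (D2 MSN-like). PV/Th-like nuclei stood at 53.3 and neuroblast-like nuclei at 14.0 per 1000. In cholinergic-like nuclei the figure was 12072.7 per 1000. A share of nuclei with a CHAT UMI near 3%, as in D1 MSN-like (3.02%), D2 MSN-like (3.11%) and OPC-like nuclei (3.19%), was not read as expression, and the source of these UMIs was not tested.

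The balance of CHAT and SLC5A7 differed between the cholinergic-like nuclei and most other classes. CHAT made up 52.2% of the CHAT and SLC5A7 UMIs in cholinergic-like nuclei (exact binomial 95% interval 49.4 to 54.9), but 92.9% in oligodendrocyte-like (90.3 to 95), 95.1% in microglia-like (88 to 98.7) and 82.5% in D1 MSN-like nuclei (73.4 to 89.4). SLC5A7 was sparse outside the source neurons, at 1.11 CPM in oligodendrocyte-like, 1.99 CPM in astrocyte-like, 0.246 CPM in D1 MSN-like and 0.194 CPM in D2 MSN-like nuclei, with 0 UMIs in eccentric MSN-like nuclei (up to 0.299 CPM). In PV/Th-like nuclei, with 21 CHAT and 10 SLC5A7 UMIs, the share of 67.7% (48.6 to 83.3) could not be told apart from that of the cholinergic-like nuclei.

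**Figure D2:**
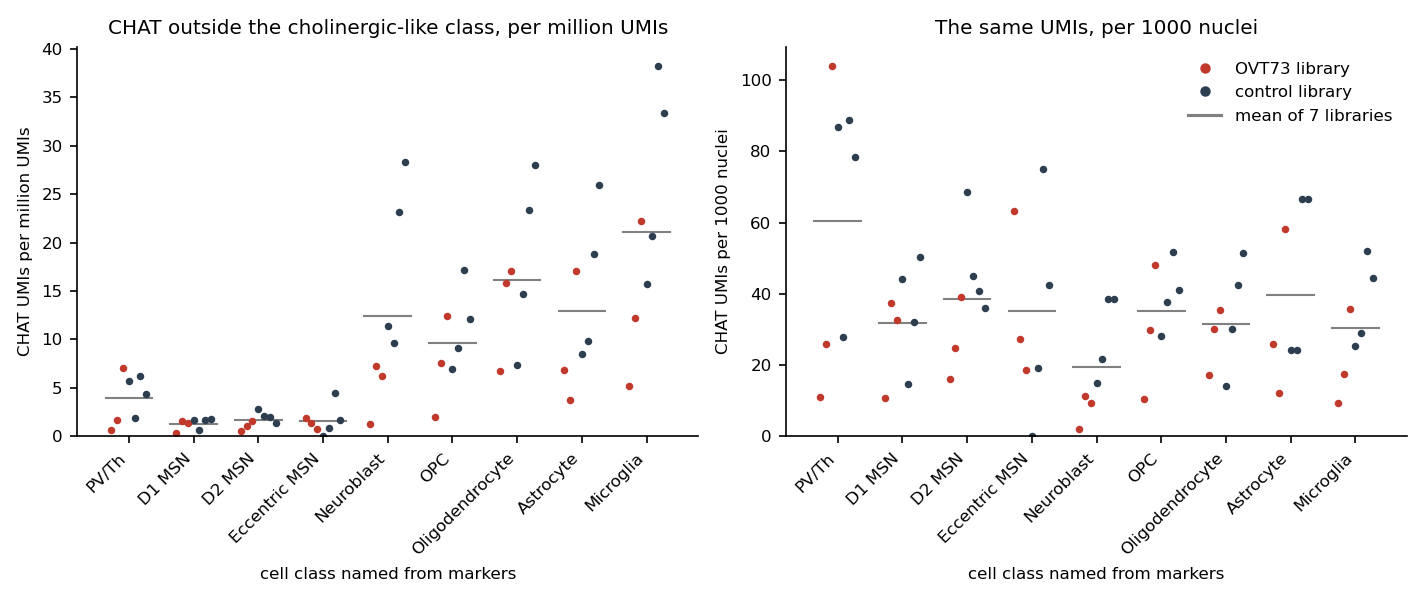
CHAT outside the cholinergic-like class in CPM (left) and in UMIs per 1000 nuclei (right), 1 point per library and a grey line at the mean of the 7 libraries. D1 MSN-like and microglia-like nuclei differ 15.1-fold in CPM, but stand at 31.0 and 26.8 UMIs per 1000 nuclei over all libraries.

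The muscarinic receptor genes were sparse, with 43 (CHRM2) to 117 UMIs (CHRM5) in all kept nuclei, and each had its own distribution over neurons. Most CHRM4 UMIs lay in D1 MSN-like nuclei, and most CHRM2 UMIs in PV/Th-like and SST/NPY-like interneurons. Most UMIs of CHRM1, CHRM3 and CHRM5 lay in D1 and D2 MSN-like nuclei, the largest neuronal classes, though other neurons reached similar or higher CPM. These 2 classes also held 31.9% (D1) and 26.1% (D2) of all UMIs counted. CHRM3 had 29.4% and 36.5% of its UMIs there, CHRM5 41.9% and 28.2%, and CHRM1 45.5% and 36.4%. The counts of CHRM3 and CHRM5 in MSN-like nuclei were thus near the share of UMIs sampled from them. Levels are compared between classes for 1 gene at a time, since transcript lengths were not used. Most values rest on a few UMIs per library.

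CHRM4 (the Gi-coupled M4 receptor) had 74 of its 91 UMIs in D1 MSN-like nuclei. Its D1 MSN-like level was 0.955, 0.633 and 0.991 CPM in OVT73 libraries and 1.54, 0.421, 2.15 and 1.35 CPM in control libraries. D2 MSN-like nuclei held 2 CHRM4 UMIs, 1 in OVT73 library 2 and 1 in control library 4, and were at 0 in the other 5 libraries. The D1 MSN-like level was above the D2 MSN-like level in 7 of 7 libraries, by 1.01 ± 0.40 on the log2(CPM + 1) scale (SD, n = 7; exact sign-flip permutation p = 0.0156; 0.0677 after adjustment over the 13 comparisons). The size depends on the pseudocount at so low a level, and was 0.28 with 5 CPM in place of 1. In control library 2 D1 MSN-like nuclei held 2 CHRM4 UMIs (0.421 CPM), and the 0 in D2 MSN-like nuclei allows up to 0.769 CPM. The sign in that library is therefore not firm, and the sign-flip p rests on all 7 signs. Over the summed UMIs the ratio was 30.2 (95% counting interval 8.08 to 254). Thinned to 5000 UMIs per nucleus, 22 of 2558 D1 MSN-like nuclei and 0 of 2107 D2 MSN-like nuclei had a CHRM4 UMI. Eccentric MSN-like nuclei, which share the MSN markers RGS9 and PDE10A but express OTOF and FOXP2, held 4 CHRM4 UMIs (0.398 CPM).

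CHRM1 (the Gq-coupled M1 receptor) did not differ detectably between the MSN classes. D1 MSN-like nuclei held 40 UMIs (0.578 CPM) and D2 MSN-like nuclei 32 UMIs (0.566 CPM), a ratio of 1.02 with a 95% counting interval of 0.626 to 1.68. The difference within libraries was 0.07 ± 0.36 (log2(CPM + 1), SD, n = 7; exact sign-flip permutation p = 0.719) and had both signs. MSN-like nuclei stood 5.47-fold (2.39 to 15.4) above glia-like and neuroblast-like nuclei together, which held 6 CHRM1 UMIs. PV/Th-like (0.465 CPM, 3 UMIs) and eccentric MSN-like nuclei (0.398 CPM, 4 UMIs) were near the D1 and D2 levels.

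CHRM3 (the Gq-coupled M3 receptor) held 25 UMIs in D1 MSN-like (0.361 CPM) and 31 in D2 MSN-like nuclei (0.548 CPM), with a ratio of 0.659 (0.373 to 1.15). The difference of −0.17 ± 0.36 on the log2(CPM + 1) scale was within the spread of the libraries (n = 7; exact sign-flip permutation p = 0.266). SST/NPY-like interneurons, which release somatostatin, neuropeptide Y and nitric oxide, carried 6 CHRM3 UMIs (3.1 CPM), and eccentric MSN-like nuclei 9 (0.896 CPM). The SST/NPY-like level was 6.96-fold that of D1 and D2 MSN-like nuclei together (95% counting interval 2.45 to 16.1), and 5 of 7 libraries contributed at least 1 UMI.

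CHRM2 (the Gi-coupled M2 receptor) was nearly absent from MSN-like nuclei, with 3 UMIs in D1 and D2 together. PV/Th-like interneurons held 16 UMIs (2.48 CPM) and were above 0 in 6 of 7 libraries. Their level by library was 4.06, 1.64 and 1.41 CPM in OVT73 libraries and 0, 1.89, 3.11 and 3.25 CPM in control libraries. Against D1 and D2 MSN-like nuclei together PV/Th-like nuclei stood 104-fold higher (95% counting interval 29.8 to 557). SST/NPY-like nuclei held 10 CHRM2 UMIs (5.16 CPM) from 4 libraries, which did not differ from PV/Th-like nuclei beyond counting error (ratio 2.08, 0.845 to 4.88).

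CHRM5 (the Gq-coupled M5 receptor) was counted in glia-like as well as MSN-like nuclei, with 21 UMIs in glia-like and neuroblast-like nuclei together. D1 MSN-like nuclei held 49 UMIs (0.708 CPM) and D2 MSN-like nuclei 33 (0.583 CPM), and the difference within libraries was 0.19 ± 0.33 (log2(CPM + 1), n = 7; exact sign-flip permutation p = 0.156). Oligodendrocyte-like nuclei held 13 UMIs (0.411 CPM) from 6 libraries and astrocyte-like nuclei 6 (0.852 CPM) from 4. D1 and D2 MSN-like nuclei together were 1.78 times the level of glia-like and neuroblast-like nuclei by CPM (95% counting interval 1.09 to 3.03). Against oligodendrocyte-like nuclei alone the ratio was 1.58 (0.877 to 3.1). Counted per nucleus instead, CHRM5 came to 0.861 UMIs per 1000 oligodendrocyte-like and 2.85 per 1000 astrocyte-like nuclei. The D1 class stood at 19 per 1000 and the D2 class at 15.5. No library gave more than 3 CHRM5 UMIs for either of these glia-like classes. Such sparse glia-like counts were not read as expression, and their source was not tested. PV/Th-like nuclei held 5 CHRM5 UMIs (0.775 CPM). Eccentric MSN-like nuclei held 0 CHRM5 UMIs, which allows up to 0.299 CPM.

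The cholinergic-like nuclei themselves held few receptor UMIs, 1 of CHRM2 (control library 3), 1 of CHRM4 (OVT73 library 3) and 0 of CHRM1, CHRM3 and CHRM5. A count of 0 in this class allows up to 2.25 CPM, above the MSN-like levels of these 3 genes. Expression at the MSN-like level was therefore not detectable with so few UMIs in the class. The computed CHRM2 difference of cholinergic-like from PV/Th-like nuclei was −1.14 ± 1.09 (log2(CPM + 1), n = 7; exact sign-flip permutation p = 0.0625, 0.203 after adjustment). The cholinergic-like value was lower in 5 libraries, higher in 1 and equal in 1. These signs cannot show a lower level, since a count of 0 there allows 9.41 to 96.9 CPM by library. PV/Th-like levels reached at most 4.06 CPM. Over the summed UMIs the counting intervals overlapped, at 0.751 CPM (0.019 to 4.19) in cholinergic-like and 2.48 CPM (1.42 to 4.03) in PV/Th-like nuclei.

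**Figure D3:**
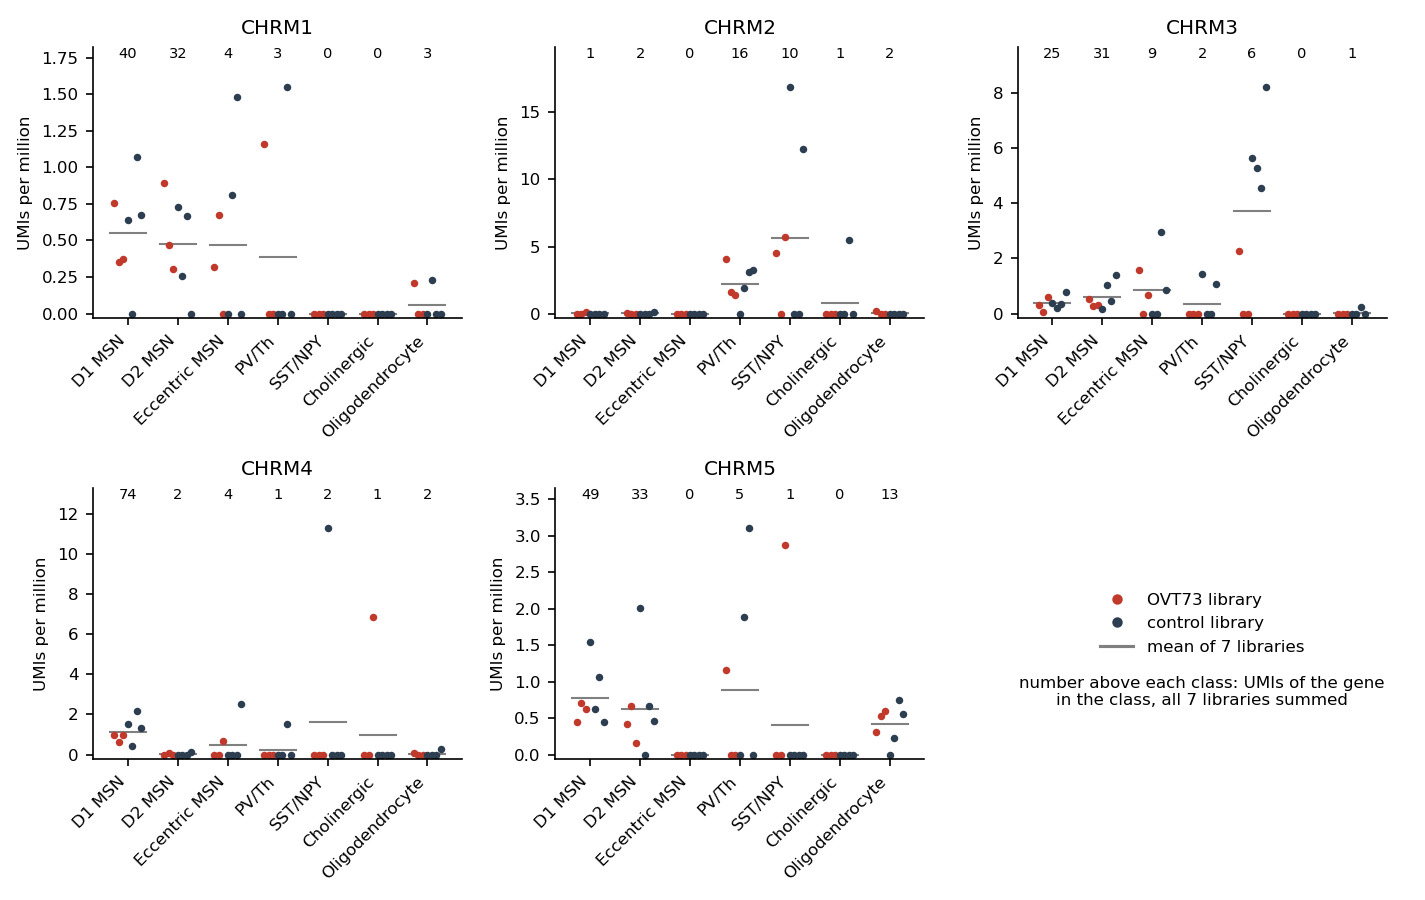
CHRM1 to CHRM5 in CPM by cell class, 1 point per library (red OVT73, dark blue control), a grey line at the mean of the 7 libraries and, above each class, the UMIs summed over libraries, with a linear scale of its own in each panel. CHRM4 shows 74 UMIs in the D1 class and 2 in the D2 class, and CHRM2 shows 16 in PV/Th-like and 10 in SST/NPY-like nuclei against 3 in both MSN classes.

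OVT73 and control libraries were compared first for the source neurons. Cholinergic-like nuclei made up 0.168, 0.158 and 0.0991% of nuclei in OVT73 libraries and 0.129, 0.307, 0.149 and 0.169% in control libraries. The mean share was 0.142 ± 0.0372% (SD, n = 3) against 0.189 ± 0.0807% (n = 4), and the groups overlapped (two-sided exact permutation p = 0.486 over the 35 choices of 3 of 7 libraries, of which the smallest possible is 0.0286). Without control library 2, whose cholinergic-like nuclei were shallow and less surely named, the difference of −0.047 percentage points became −0.00756.

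SLC5A7 was higher in each OVT73 library than in every control library, without passing the test. Its level in cholinergic-like nuclei was 595, 475 and 705 CPM in OVT73 libraries and 246, 129, 181 and 468 CPM in control libraries. OVT73 library 2 and control library 4 were close, at 475 and 468 CPM. The lowest value, 129 CPM, rests on 4 UMIs in 3 of 12 nuclei of control library 2, the library with the low CHAT level. The means were 591 ± 115 (SD, n = 3) and 256 ± 149 CPM (n = 4), a difference of 1.35 on the log2(CPM + 1) scale (exact permutation p = 0.0571, and 0.114 after adjustment over the 2 genes tested in this class). Of 3993 genes with at least 50 UMIs in the class, 82 (2.05%) had OVT73 libraries above control libraries without overlap. In nuclei of at least 5000 UMIs, a choice made after seeing the data, the difference was 1.03 (exact permutation p = 0.0571). Nuclei per library numbered 4 to 14, and their median depth ran from 2275.5 to 40555.5 UMIs, the part of which in this difference was not tested.

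CHAT in the same nuclei overlapped between the groups. The means were 491 ± 65.2 CPM in OVT73 (n = 3) and 411 ± 254 CPM in control libraries (n = 4), a difference of 0.87 on the log2(CPM + 1) scale (exact permutation p = 0.914). Without control library 2 it was −0.13 (exact permutation p = 0.4), and in nuclei of at least 5000 UMIs, where control library 2 had 1 nucleus and no CHAT UMI, it was 2.10 (exact permutation p = 0.914). CHAT made up 41.6, 51 and 44% of the CHAT and SLC5A7 UMIs in OVT73 libraries and 68.2, 20, 73.6 and 55.3% in control libraries.

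**Figure D4:**
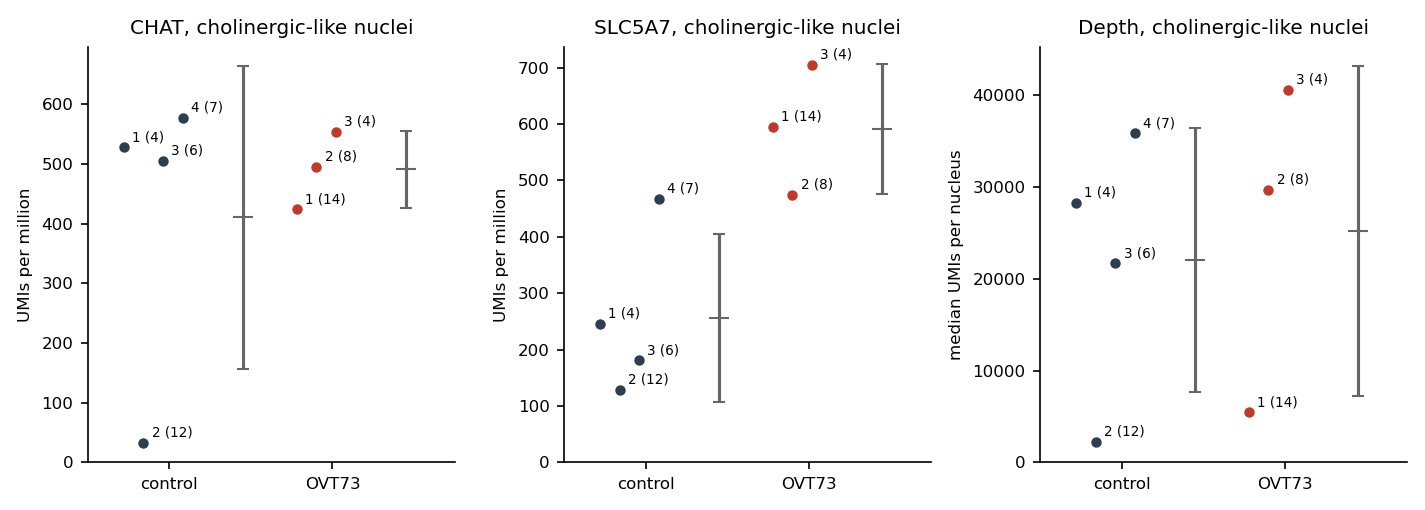
CHAT and SLC5A7 in CPM in cholinergic-like nuclei, and the median UMIs per nucleus of these nuclei, by library, with the library number and in parentheses its number of nuclei, and beside each group its mean and SD. The OVT73 libraries run from 475 to 705 CPM of SLC5A7 and the control libraries from 129 to 468 CPM, while control library 2 has a median depth of 2275.5 UMIs.

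In the receiving classes no member was called between OVT73 and control libraries. Counts were summed per library and class and tested with edgeR in the 9 classes with at least 10 nuclei in every library. Only CHAT in 6 classes and CHRM4 in D1 MSN-like nuclei passed the filter on low counts. With edgeR 0 of these 7 passed an adjusted p of 0.05, with DESeq2 0, and 1 (CHAT in microglia-like nuclei) had an unadjusted edgeR p under 0.05. The background was low too: edgeR called 0 of 12362 genes (0%) for D1 MSNs, 0 of 11788 (0%) for D2 MSNs, 0 of 8291 (0%) for astrocyte-like, 0 of 6633 (0%) for microglia-like and 0 of 10517 (0%) for oligodendrocyte-like nuclei. In OPC-like nuclei 1 of 9033 was called (0.0111%). At an unadjusted p under 0.05 490 genes (3.96%) were counted for the D1 class and 579 (4.91%) for the D2 class, and DESeq2 called 2 and 5 genes there. The same share was 4.19% for microglia-like, 4.56% for astrocyte-like, 5.16% for oligodendrocyte-like and 6.76% for OPC-like nuclei.

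For CHRM4 in D1 MSN-like nuclei the log2 fold change of OVT73 over control was −0.58 (SE 0.48, edgeR quasi-likelihood adjusted p = 0.949). The values by library, given above, overlapped. The difference of CHRM4 between D2 and D1 MSN-like nuclei was −0.846 ± 0.233 on the log2(CPM + 1) scale in OVT73 (n = 3) and −1.13 ± 0.49 in control libraries (n = 4), which did not differ detectably (exact permutation p = 0.429). For CHRM1, CHRM2, CHRM3 and CHRM5 the same comparison gave exact permutation p-values of 0.457, 0.571, 0.486 and 1.

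CHAT outside the cholinergic-like class had negative fold changes in all 6 classes fitted, none of which passed. The log2 fold change was −1.11 in microglia-like (SE 0.49, edgeR adjusted p = 1) and −1.02 in D2 MSN-like nuclei (SE 0.48, edgeR adjusted p = 0.865), and −0.42 to −0.84 in D1 MSN-like, oligodendrocyte-like, OPC-like and astrocyte-like nuclei. OVT73 library 1 had the lowest CHAT level of the 7 libraries in microglia-like (5.19 CPM), oligodendrocyte-like (6.71 CPM), OPC-like (1.97 CPM), D1 MSN-like (0.302 CPM) and D2 MSN-like nuclei (0.471 CPM). It was also the deepest library, with 70473426 UMIs. By the paper's library statistics it had the lowest share of antisense reads and the highest share of reads mapped to the transcriptome. The part of these traits in the CHAT levels was not tested. Without OVT73 library 1 the D1 MSN-like value changed from −0.42 to 0.09, and the others moved toward 0. They became −0.07 in OPC-like (from −0.61), −0.08 in oligodendrocyte-like (from −0.46), −0.57 in D2 MSN-like, −0.60 in microglia-like and −0.61 in astrocyte-like nuclei (from −0.84). Leaving out other libraries also moved the values away from 0. The lowest were −1.72 in microglia-like, −1.49 in astrocyte-like and −1.35 in D2 MSN-like nuclei. For OPC-like, D1 MSN-like and oligodendrocyte-like nuclei they were −1.15, −0.92 and −0.70. In neuroblast-like nuclei CHAT was too sparse for the fit (20 UMIs). There the OVT73 libraries (1.27, 7.2 and 6.18 CPM) lay below the control libraries (11.4, 9.65, 23.2 and 28.3 CPM) without overlap (exact permutation p = 0.0857). These values rest on 1, 3 and 2 UMIs in OVT73 and 2, 1, 3 and 8 UMIs in control libraries. The gap lies between 3 UMIs in OVT73 library 2 and 1 UMI in control library 2, so the lack of overlap is not firm. Of the 5107 genes that passed the filter on low counts in this class, 5.35% did not overlap, in either direction. That share was taken on normalised CPM and without CHAT, whose values here are not normalised further. Over the 18 combinations of gene and class tested by permutation the smallest adjusted p was 0.514.

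The other genes of the pathway were read from a list of 46, of which 41 were measured, and 22 of these served transmitter turnover or nicotinic receptors. Among the enzymes that split acetylcholine, ACHE stood at 30.1 ± 16.5 CPM in cholinergic-like nuclei (the level over all libraries with the SD of the 7 library values, here and below), 34.6 ± 15.5 CPM in SST/NPY-like and 19.2 ± 8.95 CPM in PV/Th-like interneurons, and at 4.26 ± 1.26 CPM in D1 MSN-like nuclei. BCHE (butyrylcholinesterase) was highest in OPC-like nuclei, at 180 ± 26.5 CPM. SLC10A4, a vesicular protein of cholinergic and monoamine neurons, reached 36.8 ± 19.7 CPM in cholinergic-like and 14.9 ± 5.29 CPM in PV/Th-like nuclei. It is among the markers used to name the cholinergic-like class, so that its level there is not a separate result. SLC44A1, a choline transporter found in most cells, was highest in oligodendrocyte-like nuclei (1495.1 CPM).

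The levels of nicotinic receptor subunit genes by class are given without a test. CHRNA3 and CHRNA5, subunits that assemble with CHRNB4, were highest in neuroblast-like nuclei, at 56.3 ± 24 and 25.2 ± 19.9 CPM. In PV/Th-like interneurons CHRNB4 stood at 19.5 ± 9.91 CPM, CHRNA3 at 13.5 ± 7.68 CPM and CHRNA6 at 11.9 ± 6.6 CPM. CHRNB2, the common beta subunit of brain receptors, was counted in both main MSN classes, at 4.71 ± 3.07 CPM (D1) and 4.46 ± 2.81 CPM (D2). Cholinergic-like (4.51 ± 4.33 CPM), PV/Th-like (4.18 ± 3.48 CPM) and neuroblast-like nuclei (4.05 ± 2.88 CPM) were near these levels. SST/NPY-like nuclei stood at 3.1 ± 4.37 CPM and eccentric MSN-like nuclei at 2.89 ± 2.2 CPM. LYPD1, an inhibitor of nicotinic receptors, reached 157 ± 104 CPM in SST/NPY-like nuclei.

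**Figure D5:**
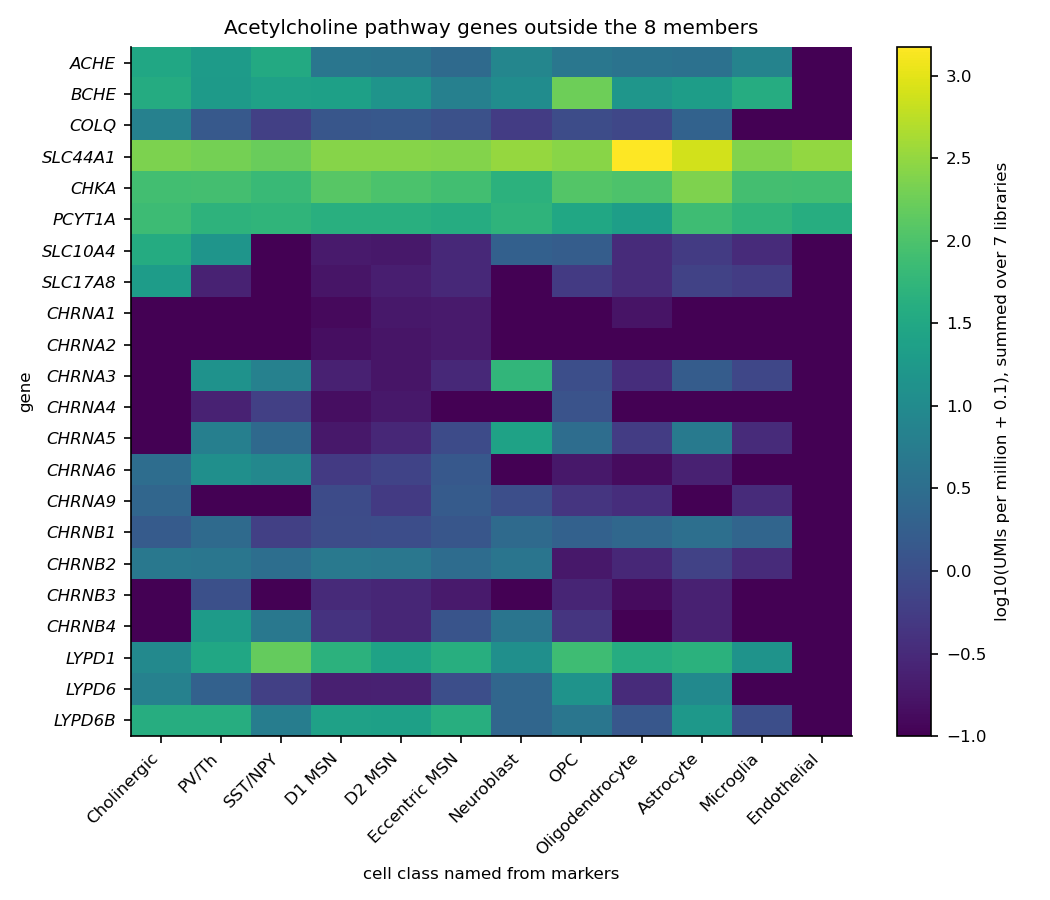
Levels of 22 genes of acetylcholine turnover and nicotinic receptors (rows) by cell class (columns), as log10 of CPM + 0.1 summed over the 7 libraries, with the colour scale running from dark (no UMIs) to yellow. SLC44A1 peaks in oligodendrocyte-like nuclei at 1495.1 CPM, BCHE in OPC-like nuclei at 180 CPM and CHRNA3 in neuroblast-like nuclei at 56.3 CPM.

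Between OVT73 and control libraries 0 of the pathway genes passed the edgeR test in MSN-like nuclei. In D1 MSN-like nuclei 28 were tested, 16 with a fold change above 0 and 12 below, with a median log2 fold change of 0.02 against −0.02 over all genes tested. In D2 MSN-like nuclei 28 were tested, 15 above 0 and 13 below, with a median of 0.06 against −0.02. OVT73 and control libraries did not overlap for 1 of these genes in the D1 class, against 5.25% of all genes tested there. For the D2 class it was 2 of them, against 6.24% of all genes.

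These were GNA11 for D1 MSNs, and RGS2 and GNAI1 for D2 MSNs. GNA11, a Gq family alpha subunit, stood at 7.43 ± 1.77 normalised CPM in OVT73 (n = 3) against 4.55 ± 1.07 in control libraries (n = 4), a log2 fold change of 0.70 (SE 0.27, edgeR adjusted p = 0.949). RGS2, which limits Gq signalling, stood at 27.8 ± 7.24 against 48.8 ± 10.6 in D2 MSN-like nuclei, a log2 fold change of −0.82 (SE 0.22, edgeR adjusted p = 0.865). GNAI1, a Gi alpha subunit, stood at 16.4 ± 1.25 against 11.5 ± 3.88, a log2 fold change of 0.53 (SE 0.26, edgeR adjusted p = 0.865). Its groups were barely apart, at 15.4 in OVT73 library 1 and 15.3 in control library 3.

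For each member the 3 genes with the most similar pattern over the 12 named classes were sought among 18722 genes with at least 20 UMIs (Pearson correlation of the mean log2(CPM + 1), a description over 12 classes that share libraries). SLC5A7 was closest to ADCYAP1 (r = 0.992), NGFR (0.99) and SLC17A8 (0.989), which held only 26, 24 and 77 UMIs. SLC17A8 is among the markers used to name the cholinergic-like class. CHAT was closest to ACLY (0.921), which makes the acetyl-CoA that choline acetyltransferase uses, TMUB1 (0.906) and NID2 (0.894). CHRM2 was closest to the feature named MIR490 (0.985), a microRNA gene that lies inside CHRM2 in human, so that their reads may not be separable. CHRM1 was closest to CILP2 (0.973), CHRM3 to SLC26A4 (0.979), CHRM5 to TBX10 (0.945) and CHRM4 to ENSOARG00020020572 (0.949). These receptor genes held few UMIs themselves (85 to 117), and SLC18A3 was too sparse to rank.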

How the data were processed

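The authors made UMI counts per feature and barcode from 3′ droplet libraries of striatal nuclei with Cell Ranger 7.0.0 and STAR 2.7.2a on Oar_rambouillet_v1.0. The deposited values are these raw counts, before barcodes were assigned to sheep, and whether intronic reads were counted is not given in the sources used here.

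Barcodes with 200 to 7500 genes and at most 5% mitochondrial UMIs were kept, 33957 of 35272. The doublet caller's automatic threshold marked only 129 of them, so the 4% with the highest score in each library, 1355 in all, were removed. From the 3000 most variable genes without the members, 30 components were corrected between libraries with a Harmony-type method and clustered on a graph of 20 neighbours at resolution 1.0 (scanpy 1.11.5, igraph 0.11.9). This gave 28 clusters, or 40 with sub-clusters of unclear ones, of which 20 stayed unnamed.

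A cluster took a class name when at least 3 of its markers exceeded the other nuclei by 1 or more log2 units and no other class came to 0.6 of their mean. It stayed unnamed if over 20% of its barcodes scored as doublets, if over 50% came from 1 library, or if it was shallow beside the deepest cluster of that name. These rules were set after marker profiles and the members' levels by cluster were seen, and before OVT73 was compared with control. The members, gene lists and markers were chosen with earlier results of these data known. Genes named are the members, pathway genes with an unadjusted p under 0.05 or without overlap in either MSN class or described by class, and the 3 genes most like each member.

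UMIs were summed per library and class, since nuclei of 1 library are not replicates. OVT73 and control were tested by edgeR 4.0.16 in R 4.3.3 (robust quasi-likelihood test after filterByExpr and TMM, Benjamini-Hochberg adjustment over all genes of a class, threshold 0.05), checked on simulated data, with DESeq2 1.42.0 as an alternative. Single values were tested by two-sided exact permutation (scipy 1.17.1). Counting intervals are exact at 95%, and a count of 0 allows up to 3. No coordinates are given, since the annotation at hand was of another assembly. Other normalizations, filters, pseudocounts, resolutions, doublet handling, members among the variable genes, equal nuclei per library and leaving out each library were tried.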

Additional observations from a re-analysis of the deposited data

Results flagged for a closer look

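Of the 26 sets of values from 4 control libraries that were checked, 2 had a library far from the other 3, where chance gives about 1 in 20. CHAT in cholinergic-like nuclei of control library 2 stood at 32.3 CPM against 505 to 577 CPM in the other control libraries, a gap of 0.868 of the whole range. Its 12 nuclei of this class held 30969 UMIs in all, in which 3 counts equal 96.9 CPM, and 1 of them had at least 5000 UMIs. CHAT in D1 MSN-like nuclei of the same library stood at 0.632 CPM (3 UMIs) against 1.61 to 1.79 CPM, a gap of 0.845 of the range.

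Source genes were also high in barcodes that were left out of the main comparisons and entered as an alternative only. In 2 unnamed sub-clusters with cholinergic markers but few UMIs (57 barcodes, median 1455 UMIs), SLC5A7 stood at 839 CPM (92 UMIs) and CHAT at 119 CPM (13 UMIs). CHAT made up 12.4% of the UMIs of both genes there (exact binomial 95% interval 6.76 to 20.2), against 52.2% in cholinergic-like nuclei. ACHE stood at 1021.4 CPM and ECEL1, itself a cholinergic marker, at 684 CPM in these barcodes, against 30.1 and 60.1 CPM in cholinergic-like nuclei. The median mitochondrial share of these barcodes was 2.48% against 0.542%. They came from all 7 libraries, 19, 5 and 5 from OVT73 and 6, 6, 11 and 5 from control libraries. What these barcodes hold was not tested.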

How the results depend on the processing

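Of 368 values recomputed under alternatives, 13 changed sign. Exact permutation tests between groups could not pass 0.05 without 1 library, since their smallest p is then 0.0667 or 0.1. The excess of CHRM4 in D1 over D2 MSN-like nuclei ran from 0.28 (pseudocount of 5 CPM) to 1.32 (resolution 2.0), and from 0.90 to 1.09 without each library in turn. The excess of SLC5A7 in OVT73 cholinergic-like nuclei ran from 1.08 to 1.70 without each library in turn, and was 0.90 with the low-UMI sub-clusters added, a choice made after seeing the data. CHAT there changed from 0.87 to −0.13 without control library 2 (range −0.13 to 1.24), and was 2.10 in nuclei of at least 5000 UMIs. Without control library 4, the differences of CHRM1 (−0.04, range −0.04 to 0.14) and CHRM2 (0.02, range −0.05 to 0.02) between both MSN classes changed sign. CHRM4 in cholinergic-like against PV/Th-like nuclei became −0.23 without OVT73 library 3 (range −0.23 to 0.50), and CHAT in D1 MSN-like nuclei became 0.09 without OVT73 library 1 (range −0.92 to 0.09). The group difference of CHRM5 between D2 and D1 MSN-like nuclei, 0.00, became −0.01 (pseudocount of 5 CPM), −0.17 (mean over nuclei), −0.02 (doublets kept) and −0.04 (resolution 2.0), and ran from −0.17 to 0.16 without each library in turn (−0.07 without OVT73 library 1 or 2, −0.17 without control library 2, −0.04 without control library 3). Called genes over 9 classes numbered 2, none a member, against 20 with DESeq2, 156 without the filter on low counts, 0 with equal nuclei per library, 1 with doublets kept, 1 at resolution 2.0 and 0 to 3 without each library in turn. The causes were not tested. No paired analysis was possible because the labels give no numbers that tie OVT73 to control libraries. The few UMIs of the small cholinergic-like class limited the reading of receptor genes there, since a count of 0 allows up to 2.25 CPM.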
